A study of Mus musculus with 4 samples.

Results

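The ligands described here are 10 genes of the tumor necrosis factor (TNF) superfamily: Tnf, Lta, Ltb, Tnfsf4, Tnfsf8, Tnfsf9, Tnfsf10, Tnfsf13b, Tnfsf14 and Fasl. They were taken by symbol from the raw count table of each tumor, and all 10 were found among the 25239 genes of those tables. The rule is a list of symbols with no threshold on a measured value. It also names Tnfsf13b for the comparison of virus carried by T cells with injected virus. The list was drawn up with earlier results of these data known. RNA-seq was run on mouse B16 melanoma tumors, a transplantable pigmented tumor line, with 1 library for each of 4 groups.

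All mice were B6 animals inoculated under the skin with 1000000 B16 cells and treated from day 7, and all received CTX into the abdomen 1 day before ACT, 2 abbreviations that the labels do not expand. In the TRP-1MV group, 5000000 TRP-1 T cells carrying the virus MV were given by vein. In the MV (L.i.t.) group, free MV was injected into the left tumor and 5000000 TRP-1 T cells without virus were given by vein. The remote tumor (no MV) was the uninjected right tumor of that same treatment, with the same T cells. The CTX group received neither T cells nor virus, and its label records PBS injected into the left tumor. The table headers write MYXV, the usual abbreviation of myxoma virus, where the labels write MV. The T cells carry the name TRP-1, a pigment enzyme of melanocytes whose gene is Tyrp1. Tumor tissue was taken 12 days after ACT. The labels state n = 2, yet each group has 1 column of counts, and whether mice were pooled or the remote and injected tumors came from the same animals is not stated. A group given T cells alone was not analysed here.

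TNF superfamily ligands are membrane proteins that assemble as trimers, and many can be shed from the cell surface. They bind receptors that signal through TRAF adaptors to NF-kB or, for receptors with a death domain, through FADD and caspase-8 to cell death. In tumors the family is known for costimulation of T cells, for the survival of B cells and for killing of target cells by lymphocytes and myeloid cells.

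Total counts were 14802809 in the TRP-1MV tumor, 12375526 in the MV (L.i.t.) tumor, 21790759 in the remote tumor and 20811605 in the CTX tumor. Levels are given as CPM, counts scaled to a common library total, after TMM adjustment of those totals for differences in composition. Where a library had 0 reads of a gene, the level that a floor of 3 reads allows lay between 0.151 and 0.222 CPM. Ratios carry a 95% exact conditional binomial interval that covers counting error only, since no group had a second library. A gene was called higher or lower at a ratio of at least 2 with an interval that excludes 1. Reads of the 7 melanocyte markers were found in every tumor and summed to 5380 CPM in the TRP-1MV tumor and 5740 CPM in the MV (L.i.t.) tumor, against 25100 CPM in the remote tumor and 24700 CPM in the CTX tumor. T cell markers ran the other way, at 240 and 241 CPM in the TRP-1MV and MV (L.i.t.) tumors, against 9.75 and 9.86 CPM in the remote and CTX tumors, where Lck alone gave 71.6% and 68.8% of those reads. All 9 T cell markers and all 5 B cell markers were called higher than CTX in both tumors with virus. So were 7 of 9 macrophage and monocyte markers and the 5 of 8 neutrophil markers that passed the minimum count. Of all 13357 genes compared, 18.5% were called higher in the TRP-1MV tumor and 18.1% in the MV (L.i.t.) tumor. Many of the markers passed the minimum through those tumors, so their calls are a description. In such whole-tumor libraries, fewer cells of a type and less RNA per cell cannot be told apart.

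Several of the ligand genes are neighbours in the genome. Ltb (mm10 chr17:35194439-35196320, plus strand), Tnf (chr17:35199381-35202007, minus strand) and Lta (chr17:35203165-35205351, minus strand) lie side by side in the major histocompatibility region. Tnfsf9 (chr17:57105325-57107757, plus strand) and Tnfsf14 (chr17:57189492-57194177, minus strand) form a second pair on chromosome 17. Tnfsf4 (chr1:161395409-161418410, plus strand) and Fasl (chr1:161780689-161788495, minus strand) lie on chromosome 1. Tnfsf8 is at chr4:63831308-63861347 (minus strand), Tnfsf10 at chr3:27317028-27342427 (plus strand) and Tnfsf13b at chr8:10006467-10039072 (plus strand).

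RefSeq promoters on GRCm38.p6, the build also called mm10, were matched for 8 of the 10 ligands, with 9 start sites among them; Tnfsf4 and Tnfsf9 had none. The sequences shown are those of the Tnf, Lta and Ltb cluster, whose members were high in the same tumors, and of Tnfsf13b, the one ligand called between the tumors with virus. They are written 5′ to 3′ on the strand of the gene, with matches to a searched motif in capitals. The Tnf window is chr17:35202008-35202257 (minus strand), the Lta window chr17:35205352-35205601 (minus strand), the Ltb window chr17:35194257-35194506 (plus strand) and the Tnfsf13b window chr8:10006217-10006466 (plus strand). For Ltb the 182 bases up to the annotated gene start, chr17:35194257-35194438, are printed of the 250 bases searched, so its sequence stops short of the RefSeq start.
Tnf: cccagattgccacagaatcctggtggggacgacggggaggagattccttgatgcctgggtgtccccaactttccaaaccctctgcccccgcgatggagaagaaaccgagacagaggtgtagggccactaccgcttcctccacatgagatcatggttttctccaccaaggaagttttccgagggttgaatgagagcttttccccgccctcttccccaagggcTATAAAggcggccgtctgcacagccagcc
Lta: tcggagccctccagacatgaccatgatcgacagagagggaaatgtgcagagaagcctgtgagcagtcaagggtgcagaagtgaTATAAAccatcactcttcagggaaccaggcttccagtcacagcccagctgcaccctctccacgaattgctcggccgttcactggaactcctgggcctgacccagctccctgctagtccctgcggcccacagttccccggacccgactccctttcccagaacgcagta
Ltb: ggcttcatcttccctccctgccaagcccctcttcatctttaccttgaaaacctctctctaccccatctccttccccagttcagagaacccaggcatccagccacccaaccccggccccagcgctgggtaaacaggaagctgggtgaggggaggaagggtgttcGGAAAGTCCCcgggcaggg
Tnfsf13b: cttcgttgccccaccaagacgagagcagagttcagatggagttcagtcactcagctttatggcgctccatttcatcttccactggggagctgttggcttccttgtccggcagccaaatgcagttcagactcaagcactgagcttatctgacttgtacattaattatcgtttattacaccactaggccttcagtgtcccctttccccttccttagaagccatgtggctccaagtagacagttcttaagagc

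Motifs were searched on both strands of the 250 bases before each start site, and no match overlapped another. TATAAA, the TATA box, was found 29 to 24 bases upstream of the Tnf start and 167 to 162 bases upstream of the Lta start, and it occurs in 12.4% of 32851 promoter windows. The Ltb window held 1 match to the kappaB motif, on the opposite strand 87 to 78 bases upstream of the RefSeq start, a motif present in 3.9% of windows. The first Tnfsf13b start had no match to any motif searched. Its second start had the AP-1 motif TGANTCA, present in 6.75% of windows, 127 to 121 bases upstream, and a pair of GAAA blocks 2 bases apart, a motif of interferon regulatory factors present in 2.98% of windows, 16 to 7 bases upstream. Tnfsf14 had TGANTCA 160 to 154 bases upstream. Tnfsf8, Tnfsf10 and Fasl had no match, and TGACGTCA, the cyclic AMP response element present in 1.55% of windows, was found in none of the 9 windows. A match is a description of letters in a window.

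The ligands as a group had about the same summed level in both tumors with virus and a much lower one in the tumors without it. Their reads summed to 1806 in the TRP-1MV tumor (112 CPM), 1517 in the MV (L.i.t.) tumor (112 CPM), 609 in the remote tumor (30.6 CPM) and 410 in the CTX tumor (21.4 CPM). All 10 genes had reads in both tumors with virus, whereas 4 were at 0 reads in the remote tumor and 3 in the CTX tumor. The plot of ligand levels by tumor shows 2 patterns, since Tnfsf9 was present throughout and the other genes had few or no reads outside the tumors with virus, apart from Tnf.

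**Figure D1:**
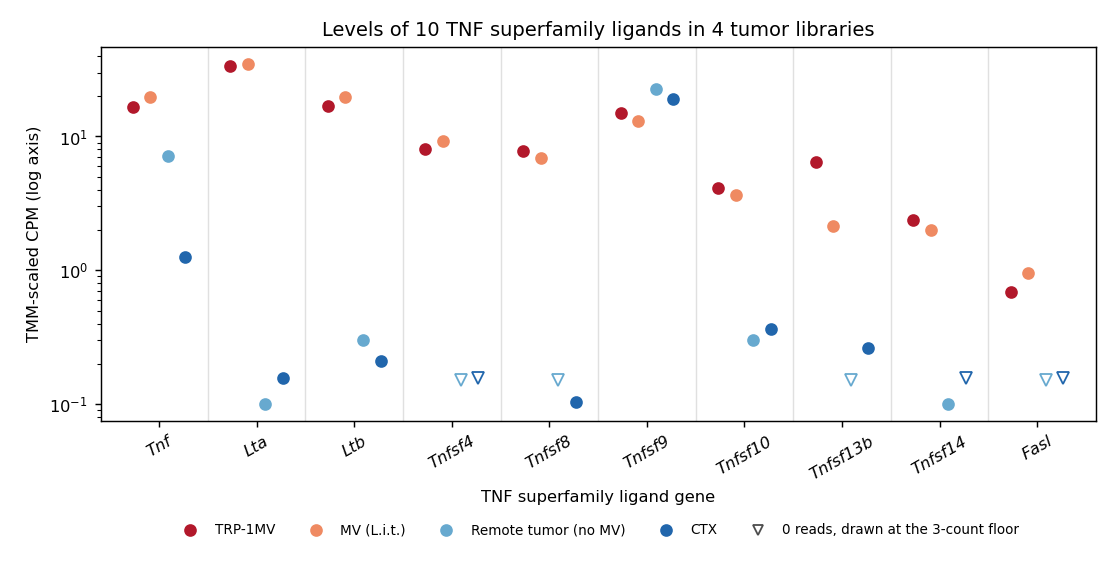
TMM-scaled CPM on a log axis for each of the 10 ligand genes, with 1 point for each tumor library and open triangles at the 3-read floor where a gene had 0 reads. Lta reached 33.8 and 34.9 CPM in the TRP-1MV and MV (L.i.t.) tumors, and Tnfsf9 stood at 22.6 and 19.0 CPM in the remote and CTX tumors.

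The makeup of the ligand reads differed between the tumors with and without virus. Tnfsf9, which encodes the ligand of the T cell costimulatory receptor 4-1BB, gave 13.5% of ligand reads in the TRP-1MV tumor (95% Clopper-Pearson interval 12.0 to 15.2) and 11.7% in the MV (L.i.t.) tumor (10.1 to 13.4). It gave 73.9% in the remote tumor (70.2 to 77.3) and 89.0% in the CTX tumor (85.6 to 91.9). Lta held the largest share of these reads in the tumors with virus, at 30.2% (28.1 to 32.4) in the TRP-1MV tumor and 31.0% (28.7 to 33.4) in the MV (L.i.t.) tumor. Its share was 0.328% (0.0398 to 1.18) in the remote tumor and 0.732% (0.151 to 2.12) in the CTX tumor. The share of Tnf was highest in the remote tumor, at 23.5% (20.2 to 27.1), and it was 5.85% (3.79 to 8.58) in the CTX tumor. The intervals of these Tnf shares do not overlap.

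**Figure D2:**
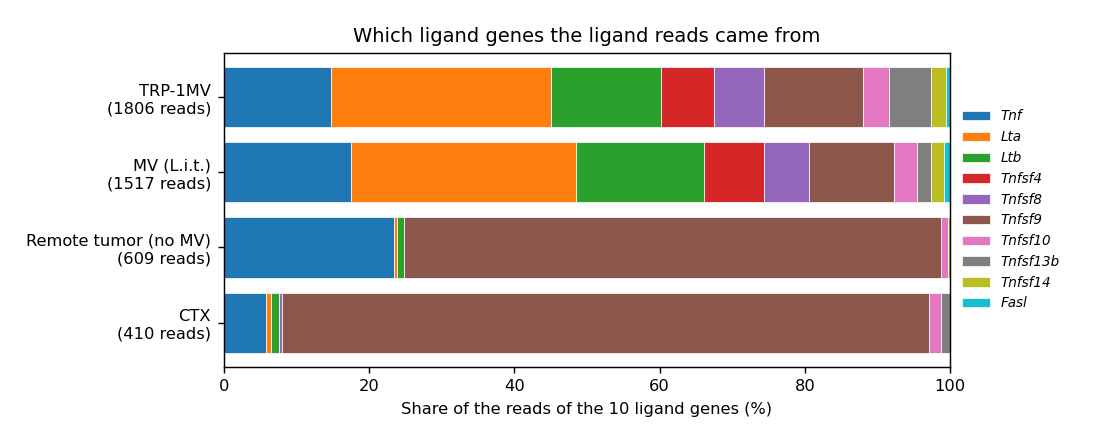
Stacked shares, in percent, of the reads of the 10 ligand genes in each tumor library, with the number of ligand reads in brackets. Tnfsf9 fills 73.9% of the remote bar and 89.0% of the CTX bar, whereas Lta, Tnf and Ltb take the larger shares in the TRP-1MV and MV (L.i.t.) bars.

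Per kilobase of exon, the scale on which different genes can be set side by side, Lta had the highest level of the ligands in the TRP-1MV and MV (L.i.t.) tumors, at 24.5 and 25.2 CPM per kilobase. Tnfsf9, Ltb and Tnf followed in the TRP-1MV tumor at 11.7, 11.2 and 10.2 CPM per kilobase, and in the MV (L.i.t.) tumor Ltb, Tnf and Tnfsf9 were at 13.0, 12.0 and 10.2. Tnfsf4, Tnfsf8 and Tnfsf14 were intermediate. Tnfsf10, Tnfsf13b and Fasl were lowest, between 0.312 and 0.931 CPM per kilobase. In the remote tumor Tnfsf9 at 17.5 and Tnf at 4.38 CPM per kilobase were the highest, and every other ligand was at or below 0.199. The same order held at the top of the CTX tumor, with Tnfsf9 at 14.8 and Tnf at 0.764 CPM per kilobase.

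Each tumor with virus was compared with the CTX tumor, which sets T cells plus virus after CTX against CTX alone. In both, 8 of the 9 ligands past the minimum mean count of 10 were called higher and none lower. Over all 13357 genes compared, 18.5% were called higher and 11.7% lower in the TRP-1MV tumor, and 18.1% higher and 11.1% lower in the MV (L.i.t.) tumor. The median log2 ratio of the ligands was 4.62 in the TRP-1MV tumor and 3.97 in the MV (L.i.t.) tumor, beside medians of -0.07 and -0.05 over all genes. The minimum is a mean over all 4 libraries, so Lta, Ltb, Tnfsf4, Tnfsf8, Tnfsf10, Tnfsf13b and Tnfsf14 passed it through the tumors with virus, and these counts and medians describe the ligands without standing as support. When housekeeping genes set the scale, 3446 genes were called higher and 679 lower in the TRP-1MV tumor, in place of 2476 and 1559. With that scale the MV (L.i.t.) tumor had 3514 genes higher and 626 lower, in place of 2411 and 1488, and the ligand counts stayed at 8.

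**Figure D3:**
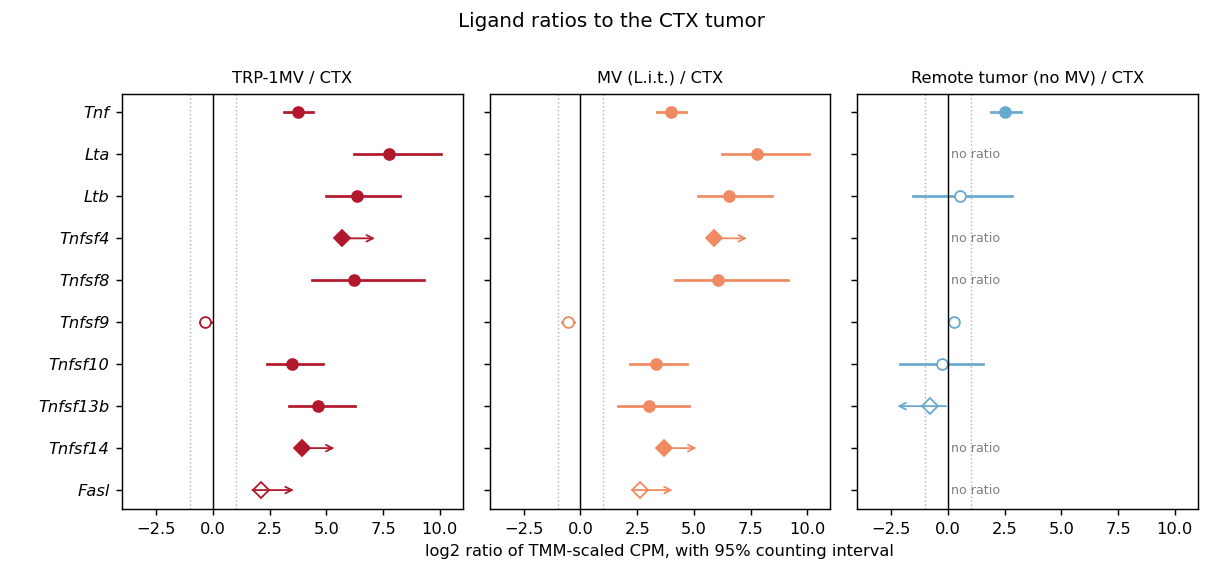
Log2 ratio of each ligand to the CTX tumor with its 95% counting interval, in 1 panel for each of the other tumors; filled symbols were called, diamonds with an arrow are bounds from a library with 0 reads, and dotted lines mark a ratio of 2 either way. All ligands but Tnfsf9 lie to the right in both panels with virus, Fasl being under the minimum count, and Tnf is the one filled symbol in the remote panel.

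Of the ligands with reads in the CTX tumor, Lta had the largest ratio. It encodes lymphotoxin alpha, a product of activated lymphocytes that is secreted as a homotrimer or joins lymphotoxin beta on the membrane, and it had 545 reads (33.8 CPM) in the TRP-1MV tumor and 471 (34.9 CPM) in the MV (L.i.t.) tumor. The remote tumor had 2 reads (0.1 CPM) and the CTX tumor 3 (0.156 CPM). Both tumors with virus were thus high and both without it at or below the 3-read floor. The log2 ratio to CTX was 7.76 (6.20 to 10.04) in the TRP-1MV tumor and 7.80 (6.24 to 10.08) in the MV (L.i.t.) tumor.

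Ltb, which encodes lymphotoxin beta and anchors that complex in the membrane, had 274 reads (17.0 CPM) in the TRP-1MV tumor, 266 (19.7 CPM) in the MV (L.i.t.) tumor, 6 (0.301 CPM) in the remote tumor and 4 (0.209 CPM) in the CTX tumor. Its log2 ratio to CTX was 6.35 (4.98 to 8.24) in the TRP-1MV tumor and 6.56 (5.19 to 8.45) in the MV (L.i.t.) tumor. Per T cell marker read the differences were smaller. Lta stood at 141 reads per 1000 reads of the 9 T cell markers in the TRP-1MV tumor and 144 in the MV (L.i.t.) tumor, against 10.3 in the remote tumor and 15.9 in the CTX tumor. On that basis the log2 ratio of Lta to CTX was 3.15 (1.57 to 5.45) in the TRP-1MV tumor and 3.19 (1.61 to 5.48) in the MV (L.i.t.) tumor. For Ltb it was 1.74 (0.35 to 3.65) and 1.95 (0.55 to 3.85) in the same tumors. Without Lck, the marker that held most of the list's reads in the CTX tumor, the ratios of Lta became 1.86 (0.23 to 4.18) and 1.90 (0.28 to 4.23), with intervals that excluded 0. Those of Ltb became 0.45 (-0.998 to 2.38) and 0.67 (-0.78 to 2.60), with intervals that held 0.

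Tnf encodes TNF itself, an inflammatory cytokine of macrophages and T cells, and was the one ligand called between the tumors without virus. It had 268 reads (16.6 CPM) in the TRP-1MV tumor, 265 (19.6 CPM) in the MV (L.i.t.) tumor, 143 (7.18 CPM) in the remote tumor and 24 (1.25 CPM) in the CTX tumor. The remote tumor lay between the tumors with virus and the CTX tumor. The log2 ratio to CTX was 3.73 (3.13 to 4.40) in the TRP-1MV tumor and 3.97 (3.37 to 4.64) in the MV (L.i.t.) tumor. Per read of the 9 macrophage and monocyte markers, Tnf stood at 19.8 per 1000 in the TRP-1MV tumor, 34.3 in the MV (L.i.t.) tumor and 30.7 in the CTX tumor. The log2 ratio to CTX per marker read, -0.63 (-1.25 to 0.05) and 0.16 (-0.46 to 0.84) in the tumors with virus, had an interval that held 0 in both. Cd68 and C1qa gave 58.3% of the macrophage and monocyte marker reads in the CTX tumor, and without them these ratios became -1.67 (-2.30 to -0.98) and -0.85 (-1.48 to -0.16). The summed macrophage and monocyte markers were at 839 CPM in the TRP-1MV tumor, 572 CPM in the MV (L.i.t.) tumor, 48.5 CPM in the remote tumor and 40.8 CPM in the CTX tumor.

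Costimulatory ligands other than Tnfsf9 were nearly absent without virus. Tnfsf4 encodes OX40 ligand, which costimulates activated T cells, and had 131 reads (8.13 CPM) in the TRP-1MV tumor and 126 (9.32 CPM) in the MV (L.i.t.) tumor, with 0 reads in the remote and CTX tumors. Against the floor of 3 reads in the CTX library, it was 52.0-fold higher in the TRP-1MV tumor (lower 95% counting limit 41.7). In the MV (L.i.t.) tumor it was 59.6-fold higher (lower limit 47.8). Tnfsf8 encodes CD30 ligand, a product of activated T cells and other leukocytes, and had 126 reads (7.82 CPM) in the TRP-1MV tumor, 94 (6.96 CPM) in the MV (L.i.t.) tumor, 0 in the remote tumor and 2 (0.104 CPM) in the CTX tumor. Its log2 ratio to CTX was 6.23 (4.35 to 9.29) in the TRP-1MV tumor and 6.06 (4.17 to 9.13) in the MV (L.i.t.) tumor. Tnfsf14, which encodes LIGHT, a ligand of the herpesvirus entry mediator and of the lymphotoxin beta receptor, had 38 reads (2.36 CPM) in the TRP-1MV tumor, 27 (2.0 CPM) in the MV (L.i.t.) tumor, 2 (0.1 CPM) in the remote tumor and 0 in the CTX tumor. Against the same floor, Tnfsf14 was 15.1-fold higher than CTX in the TRP-1MV tumor (lower limit 11.7). In the MV (L.i.t.) tumor it was 12.8-fold higher (lower limit 9.69). For all of these genes the tumors with virus were high and those without it at or below the floor. Per T cell marker read, the log2 ratio of Tnfsf8 to CTX was 1.62 (-0.28 to 4.70) in the TRP-1MV tumor and 1.45 (-0.47 to 4.52) in the MV (L.i.t.) tumor. Without Lck these became 0.33 (-1.62 to 3.42) and 0.16 (-1.79 to 3.26). All of these intervals held 0. Per T cell marker read, Tnfsf14 stood at 8.28 per 1000 in the MV (L.i.t.) tumor and 10.3 in the remote tumor, a log2 ratio of -0.32 (-2.33 to 2.81). For Tnfsf4, with 0 reads in both tumors without virus, the part of the marker differences in the result was not tested.

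Tnfsf9 was the exception. It had 244 reads (15.1 CPM) in the TRP-1MV tumor, 177 (13.1 CPM) in the MV (L.i.t.) tumor, 450 (22.6 CPM) in the remote tumor and 365 (19.0 CPM) in the CTX tumor. The tumors with virus were the lower ones, by less than the ratio of 2 that the rule requires. Its log2 ratio to CTX was -0.33 (-0.57 to -0.09) in the TRP-1MV tumor and -0.54 (-0.81 to -0.28) in the MV (L.i.t.) tumor. Scaled on housekeeping genes, these became 0.08 and -0.12, so the sign in the TRP-1MV tumor depends on the scale. Per 1000 reads of Tyrp1, the pigment enzyme gene of the tumor cells, Tnfsf9 stood at 8.1 in the TRP-1MV tumor, 6.64 in the MV (L.i.t.) tumor, 2.36 in the remote tumor and 2.03 in the CTX tumor. The log2 ratio to CTX on that basis was 1.99 (1.75 to 2.23) and 1.71 (1.44 to 1.97) in the tumors with virus. It rests on 1 gene, which itself was at -2.32 and -2.25 there. The melanocyte markers ran between -2.40 and -1.72 in the TRP-1MV tumor. Which cells gave the Tnfsf9 reads was not tested. Gm11110, a gene model on the opposite strand, overlaps 192 bases of the Tnfsf9 exons and had 83, 53, 188 and 179 reads in the TRP-1MV, MV (L.i.t.), remote and CTX tumors. No strand setting is given in the sources used here, so the reads of these genes cannot be told apart with certainty.

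The death ligands were low in read number. Tnfsf10 encodes TRAIL, which engages death receptors, and had 66 reads (4.1 CPM) in the TRP-1MV tumor, 49 (3.63 CPM) in the MV (L.i.t.) tumor, 6 (0.301 CPM) in the remote tumor and 7 (0.365 CPM) in the CTX tumor. It was higher than CTX by a log2 ratio of 3.49 (2.37 to 4.86) in the TRP-1MV tumor and 3.31 (2.16 to 4.70) in the MV (L.i.t.) tumor. Per 1000 macrophage and monocyte marker reads it stood at 4.88 in the TRP-1MV tumor, 6.34 in the MV (L.i.t.) tumor, 6.21 in the remote tumor and 8.95 in the CTX tumor, with intervals of the ratio to CTX that held 0. Without Cd68 and C1qa, that log2 ratio was -1.92 (-3.06 to -0.54) in the TRP-1MV tumor and -1.51 (-2.67 to -0.11) in the MV (L.i.t.) tumor. Fasl encodes Fas ligand of cytotoxic lymphocytes and was the 1 ligand under the minimum count, with 11 reads (0.683 CPM) in the TRP-1MV tumor, 13 (0.962 CPM) in the MV (L.i.t.) tumor and 0 in the remote and CTX tumors. Against the 3-read floor, Fasl was 4.37-fold higher than CTX in the TRP-1MV tumor (lower 95% counting limit 2.99). In the MV (L.i.t.) tumor it was 6.15-fold higher (lower limit 4.32). Fasl is in none of the counts of called ligands.

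Tnfsf13b encodes BAFF, a survival factor for B cells made mainly by myeloid cells. It had 103 reads (6.4 CPM) in the TRP-1MV tumor, 29 (2.15 CPM) in the MV (L.i.t.) tumor, 0 in the remote tumor and 5 (0.261 CPM) in the CTX tumor. The TRP-1MV tumor was the highest and the MV (L.i.t.) tumor stood between it and the tumors without virus. The log2 ratio to CTX was 4.62 (3.35 to 6.27) in the TRP-1MV tumor and 3.04 (1.66 to 4.77) in the MV (L.i.t.) tumor. Per macrophage and monocyte marker read those ratios became 0.25 (-1.02 to 1.91) and -0.77 (-2.16 to 0.96), with intervals that held 0 in both. Without Cd68 and C1qa they were -0.79 (-2.07 to 0.87) and -1.78 (-3.18 to -0.04). Per neutrophil marker read they were -3.18 (-4.64 to -1.40) and -4.09 (-5.65 to -2.24), and without Mmp8, which had 1 read in the CTX tumor, -0.43 (-1.91 to 1.36) and -1.44 (-3.02 to 0.42).

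The comparison of the TRP-1MV tumor with the MV (L.i.t.) tumor sets virus carried by the T cells against virus injected into the tumor, with the same number of T cells in both. Tnfsf13b was the one ligand of 9 called higher, and none was called lower. The rule had singled out this gene for this comparison, so its call is a description without standing as support. Over all genes, 0.562% were called higher and 0.217% lower. Tnfsf13b, shown above at 103 reads in the TRP-1MV tumor against 29 in the MV (L.i.t.) tumor, was 2.98-fold higher (1.96 to 4.67), a log2 ratio of 1.58 (0.97 to 2.22). It made up 5.7% of ligand reads in the TRP-1MV tumor (4.68 to 6.87) and 1.91% in the MV (L.i.t.) tumor (1.28 to 2.73). Its interval reaches just under a ratio of 2, so the call is lost if the interval must exclude 2 or the ratio must reach 4.

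The other ligands lay close together in these tumors. The log2 ratio of TRP-1MV to MV (L.i.t.) was -0.24 (-0.49 to 0.01) for Tnf, -0.04 (-0.22 to 0.14) for Lta and -0.21 (-0.46 to 0.04) for Ltb. It was -0.20 (-0.56 to 0.17) for Tnfsf4, 0.17 (-0.23 to 0.57) for Tnfsf8 and 0.21 (-0.08 to 0.50) for Tnfsf9. For Tnfsf10 it was 0.18 (-0.38 to 0.74), for Tnfsf14 0.24 (-0.51 to 1.01) and for Fasl -0.49 (-1.80 to 0.78). All of these intervals hold 0. They are widest, as fold changes, at 0.288 to 1.72 for Fasl, 0.702 to 2.01 for Tnfsf14 and 0.769 to 1.67 for Tnfsf10, and differences within these ranges were not detectable at this depth. The median over the 9 ligands past the minimum was 0.17, beside -0.013 over all genes.

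**Figure D4:**
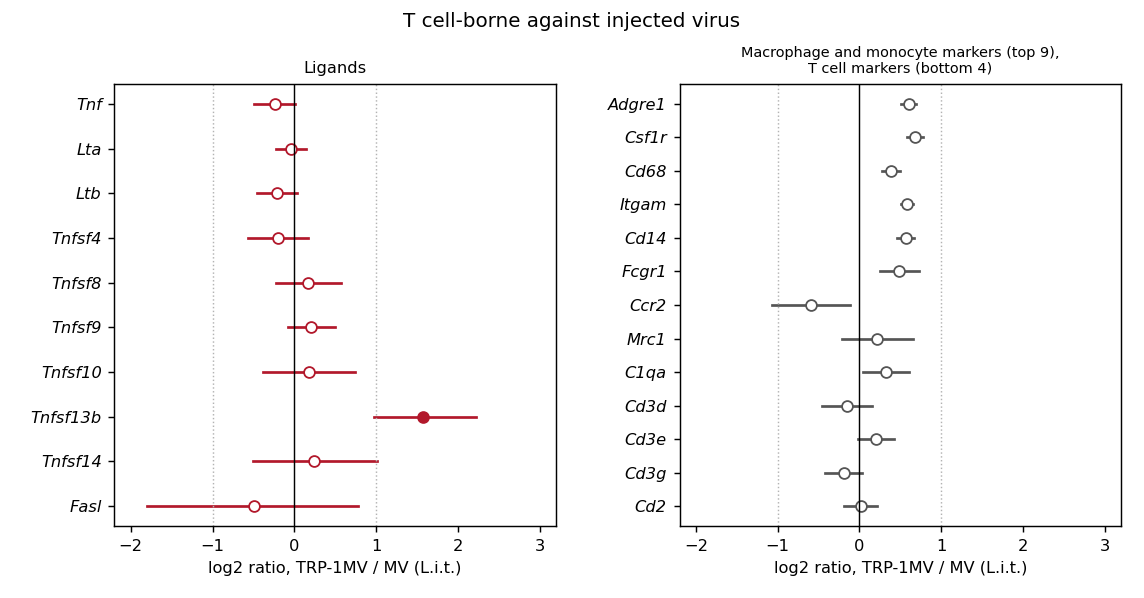
Log2 ratio of the TRP-1MV tumor to the MV (L.i.t.) tumor with its 95% counting interval, for the 10 ligands on the left and for 9 macrophage and monocyte markers and 4 T cell markers on the right; filled symbols were called. Tnfsf13b, at 1.58, is the one filled symbol, while the macrophage and monocyte markers run between -0.59 and 0.68.

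Most myeloid markers had ratios above 0 in the same comparison, all smaller than that of Tnfsf13b. None of the 9 macrophage and monocyte markers was called, and 8 of them had a log2 ratio above 0, up to 0.68 for Csf1r, with Ccr2 at -0.59. Of 5 neutrophil markers past the minimum, S100a9 was called, at 1.20 (0.73 to 1.70), and the summed neutrophil markers were at 267 CPM in the TRP-1MV tumor and 168 CPM in the MV (L.i.t.) tumor. Mmp8 gave 85.8% of those reads in the TRP-1MV tumor and 84.8% in the MV (L.i.t.) tumor. Ly6g, which defines neutrophils, had 3, 1, 0 and 1 reads in the TRP-1MV, MV (L.i.t.), remote and CTX tumors. Per 1000 macrophage and monocyte marker reads, Tnfsf13b stood at 7.62 in the TRP-1MV tumor and 3.75 in the MV (L.i.t.) tumor, a log2 ratio of 1.02 (0.41 to 1.67), or 0.99 (0.38 to 1.64) without Cd68 and C1qa. Per neutrophil marker read the log2 ratio was 0.91 (0.30 to 1.56), which is under the ratio of 2, or 1.01 (0.37 to 1.69) without Mmp8, and per T cell marker read it was 1.58 (0.97 to 2.23). Set against other ligands, it was 1.81 (1.15 to 2.51) per read of Tnf and 1.40 (0.55 to 2.26) per read of Tnfsf10.

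Neither the receptors of BAFF nor the markers of B cells were called in this comparison. The 5 B cell markers summed to 55.8 CPM in the TRP-1MV tumor and 53.1 CPM in the MV (L.i.t.) tumor, and to 0.804 CPM in the remote tumor and 0.834 CPM in the CTX tumor. Tnfrsf13c, the BAFF receptor of B cells, had 78 reads in the TRP-1MV tumor and 68 in the MV (L.i.t.) tumor, with 1 read each in the remote and CTX tumors. Tnfrsf13b, which encodes TACI, had 457, 352, 17 and 9 reads in the TRP-1MV, MV (L.i.t.), remote and CTX tumors. Tnfrsf17, the plasma cell receptor BCMA, had 1, 0, 1 and 0 reads and was under the minimum. The log2 ratio of TRP-1MV to MV (L.i.t.) was -0.06 for Tnfrsf13c and 0.12 for Tnfrsf13b.

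Genes whose profile over the 4 tumors lay closest to that of Tnfsf13b were Nuak2, Plbd1, H2-M3, Siglec1 and Susd2. Likeness was the Euclidean distance between centred log2 profiles with 0.5 CPM added, ranked over 11103 genes, and ran between 0.37 for Nuak2 and 0.55 for Susd2. Siglec1, the macrophage lectin sialoadhesin, had 401, 179, 46 and 46 reads in the TRP-1MV, MV (L.i.t.), remote and CTX tumors. Nuak2, a protein kinase gene, had 134, 55, 7 and 11 reads in the same tumors. Both were therefore highest in the TRP-1MV tumor, as Tnfsf13b was. A profile over 4 libraries is a description of these libraries.

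The remote tumor against the CTX tumor compares an uninjected tumor of treated mice with CTX alone. Tnf was the one ligand of 9 called higher, none was called lower, and over all genes 0.457% were called higher and 0.247% lower. Tnf had 143 reads in the remote tumor and 24 in the CTX tumor, and was 5.74-fold higher (3.71 to 9.25), a log2 ratio of 2.52 (1.89 to 3.21). Ltb was at 0.53 (-1.54 to 2.80), Tnfsf9 at 0.25 (0.05 to 0.45) and Tnfsf10 at -0.28 (-2.12 to 1.52), none of them called. Tnfsf13b, with 0 reads against 5, had a log2 ratio of -0.79 against the floor. It was not called, since that falls short of a ratio of 2 and counting error allows up to 0.07. The other 5 ligands, Lta, Tnfsf4, Tnfsf8, Tnfsf14 and Fasl, had 3 reads or fewer in both tumors and have no ratio. The median over the 5 ligands with a ratio was 0.25, and over all genes -0.0015.

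Some myeloid genes were also higher in the remote tumor than in the CTX tumor, by less than Tnf. Cd14 (1.61, 0.94 to 2.32) and Adgre1 (1.09, 0.48 to 1.72) were called among the 9 macrophage and monocyte markers. The sums of these markers were 48.5 CPM in the remote tumor and 40.8 CPM in the CTX tumor. Of the markers not called, Csf1r, Itgam, Cd68 and C1qa lay between 0.06 and 0.56. Fcgr1 at -0.68, Ccr2 at -0.58 and Mrc1 at -0.23 lay below 0. The neutrophil marker Csf3r at 1.13 (0.06 to 2.30) and the dendritic cell marker Itgax at 1.06 (0.22 to 1.95) were called as well. Among the other markers of those lists past the minimum with a ratio, Ccr7 was at 1.27, Flt3 at 0.36, Mmp9 at -0.25 and Zbtb46 at -0.29. None of these was called. Per 1000 reads of the macrophage and monocyte markers, Tnf stood at 148 in the remote tumor and 30.7 in the CTX tumor, a log2 ratio of 2.27 (1.62 to 2.97). Per T cell marker read the ratio was 2.54 (1.83 to 3.29), and T cell markers summed to 9.75 CPM in the remote tumor and 9.86 CPM in the CTX tumor.

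Ccl4 was the gene with the profile closest to that of Tnf, at a distance of 0.47 over 11102 genes ranked, followed by Csf3r at 1.06, Ccl3 at 1.08, Tnfaip8l2 at 1.14 and Hspa1l at 1.20. Ccl4, a chemokine of activated macrophages and T cells, had 264, 182, 91 and 13 reads in the TRP-1MV, MV (L.i.t.), remote and CTX tumors. Ccl3, another chemokine gene, had 1068, 718, 222 and 48 reads in the same tumors. As with Tnf, the remote tumor lay between the tumors with virus and the CTX tumor for both chemokines. Both were picked for a profile like that of Tnf, so this shared order is a description only.

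Set against the remote tumor, the injected MV (L.i.t.) tumor had 8 of 9 ligands called higher and none lower, where 18.6% of all genes were called higher and 11.7% lower. Tnf was the called ligand with the smallest difference, 2.73-fold higher (2.22 to 3.37) at 265 reads in the injected tumor against 143 in the remote one. Per marker read the direction was the opposite, at a log2 ratio of -2.11 (-2.42 to -1.79) per macrophage and monocyte marker read and -3.18 (-3.55 to -2.81) per T cell marker read. The log2 ratio was 8.44 (6.58 to 11.49) for Lta, 6.03 (4.89 to 7.49) for Ltb, 3.59 (2.36 to 5.10) for Tnfsf10 and 4.31 (2.32 to 7.43) for Tnfsf14. Against the floor in the remote library, Tnfsf4 was 61.9-fold higher, Tnfsf8 46.1-fold higher and Tnfsf13b 14.2-fold higher. Their lower 95% counting limits were 49.6, 36.8 and 10.9. Tnfsf9 was at -0.79 (-1.05 to -0.53) and was not called. The median over the 9 ligands was 4.31, and over all genes -0.04. The same minimum applies here, so this count and median describe the ligands without standing as support. Scaled on housekeeping genes, 3749 genes were called higher and 602 lower in place of 2483 and 1567. The remote tumor shares its treatment with the MV (L.i.t.) tumor and its comparison group with the TRP-1MV and MV (L.i.t.) comparisons above.

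Most receptors of these ligands were also higher in the tumors with virus. Of 15 receptors listed, 14 passed the minimum count. Of these, 10 were called higher than CTX in the TRP-1MV tumor and the same number in the MV (L.i.t.) tumor, with none lower. Over all genes, 18.5% were called higher and 11.7% lower in the TRP-1MV tumor. In the MV (L.i.t.) tumor these shares were 18.1% and 11.1%. The median log2 ratio of the receptors was 4.58 in the TRP-1MV tumor and 4.16 in the MV (L.i.t.) tumor. Over all genes these medians were -0.07 and -0.05. Tnfrsf8, Tnfrsf13c, Fas and Tnfrsf23 passed the minimum through the tumors with virus. These counts and medians therefore describe the receptors without standing as support. No receptor was called between the TRP-1MV and MV (L.i.t.) tumors.

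The receptors of TNF and the lymphotoxins split by type. Tnfrsf1b, the leukocyte receptor TNFR2, was at 269 and 187 CPM in the TRP-1MV and MV (L.i.t.) tumors, against 7.84 CPM in the remote tumor and 3.7 CPM in the CTX tumor. Its log2 ratio to CTX was 6.18 in the TRP-1MV tumor, 5.66 in the MV (L.i.t.) tumor and 1.08 in the remote tumor, where it was the one receptor called. Tnfrsf1a, the broadly expressed death domain receptor TNFR1, was level, at 124, 117, 129 and 122 CPM in the TRP-1MV, MV (L.i.t.), remote and CTX tumors. Ltbr, the lymphotoxin beta receptor of stromal, epithelial and myeloid cells, was at 73.9, 76.4, 141 and 130 CPM in the same tumors and its log2 ratios of -0.81 and -0.77 were not called. Tnfrsf14, the herpesvirus entry mediator, had log2 ratios of 2.32 in the TRP-1MV tumor and 2.44 in the MV (L.i.t.) tumor.

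Among receptors of the costimulatory ligands, Tnfrsf8 and Tnfrsf9 had higher ratios than the median of the list in both tumors with virus. Tnfrsf4 lay close to that median, below it in the TRP-1MV tumor and above it in the MV (L.i.t.) tumor. Tnfrsf8, which encodes CD30, had 994 and 848 reads in the TRP-1MV and MV (L.i.t.) tumors against 1 in the remote tumor and 2 in the CTX tumor, with log2 ratios to CTX of 9.21 and 9.23. Tnfrsf9, which encodes 4-1BB, was at 190 and 131 CPM in the TRP-1MV and MV (L.i.t.) tumors, against 2.41 CPM in the remote tumor and 2.09 CPM in the CTX tumor. Its log2 ratios to CTX were 6.51 in the TRP-1MV tumor and 5.97 in the MV (L.i.t.) tumor, while its ligand Tnfsf9 was not called in either. Tnfrsf4, which encodes OX40, was at 4.41 in the TRP-1MV tumor and 4.43 in the MV (L.i.t.) tumor. The BAFF receptors Tnfrsf13c (6.54 and 6.59) and Tnfrsf13b (5.92 and 5.79) were called in the same tumors.

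Among receptors of the death ligands, Fas had 201 and 107 reads in the TRP-1MV and MV (L.i.t.) tumors against 0 in the remote tumor and 1 in the CTX tumor. Its log2 ratio to CTX was 7.90 (5.41 to 13.21) in the TRP-1MV tumor and 7.25 (4.74 to 12.56) in the MV (L.i.t.) tumor. Tnfrsf10b, the mouse TRAIL death receptor, was called at 1.74 in both tumors with virus. Of the mouse decoy receptors for TRAIL, Tnfrsf23 was called at 4.76 in the TRP-1MV tumor and 3.90 in the MV (L.i.t.) tumor, and Tnfrsf22 was at -0.45 and -0.36 and not called. Tnfrsf11b, the secreted osteoprotegerin that can also bind TRAIL, was at 0.01 and 0.30 and not called.

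**Figure D5:**
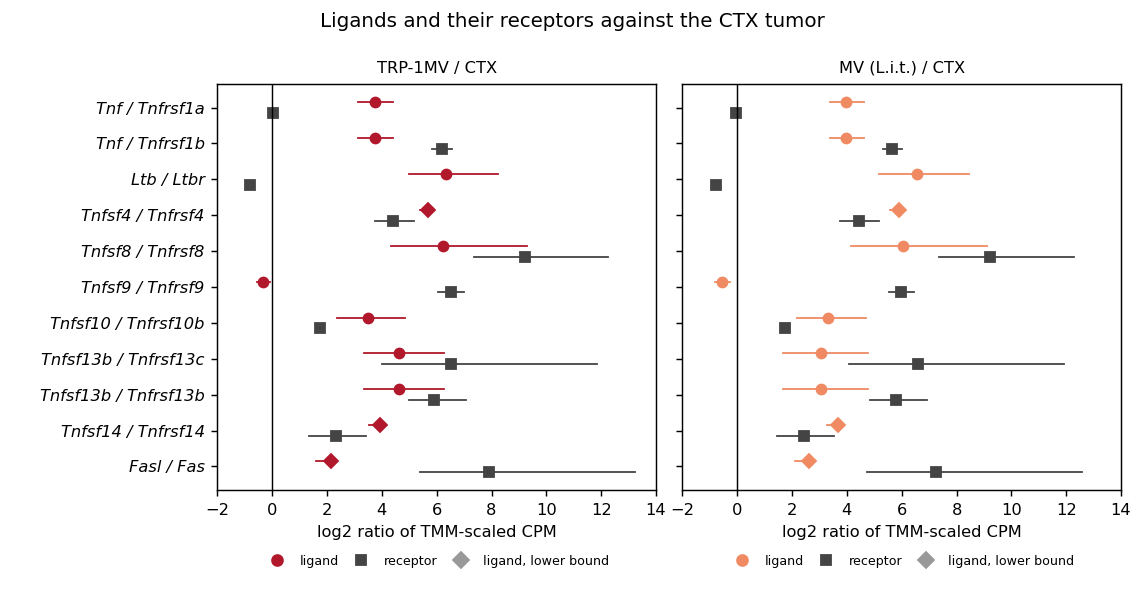
Log2 ratio to the CTX tumor of each ligand (circles, or diamonds for lower bounds) and of a receptor it binds (squares), with 95% counting intervals, in the TRP-1MV and MV (L.i.t.) tumors. Both members of most pairs lie to the right of 0, whereas Tnfrsf1a, Ltbr and the ligand Tnfsf9 lie near or left of it.

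Of 8 other ligands of the superfamily listed, 3 passed the minimum, Cd40lg and Tnfsf15 through the tumors with virus. All 3 were called higher than CTX in both tumors, a description that the filter largely fixes for Cd40lg and Tnfsf15. Among all genes, 18.5% were called higher in the TRP-1MV tumor and 18.1% in the MV (L.i.t.) tumor. Tnfsf15, which encodes TL1A, had 241 and 132 reads in the TRP-1MV and MV (L.i.t.) tumors, against 3 in the remote tumor and 2 in the CTX tumor, with log2 ratios to CTX of 7.16 and 6.55. Tnfsf12, which encodes TWEAK, was at 2.51 in the TRP-1MV tumor and 1.99 in the MV (L.i.t.) tumor. Cd40lg, the CD40 ligand of helper T cells, had 46 and 45 reads in the TRP-1MV and MV (L.i.t.) tumors and 0 in the remote and CTX tumors. Against the 3-read floor it was 18.3-fold higher than CTX in the TRP-1MV tumor (lower 95% counting limit 14.3).

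Of 11 other superfamily receptors past the minimum, 8 were called higher and 1 lower in the TRP-1MV tumor than in CTX. In the MV (L.i.t.) tumor 7 were called higher and 1 lower. Over all genes, 18.5% and 18.1% were called higher and 11.7% and 11.1% lower in these tumors. Tnfrsf11a, Cd27, Tnfrsf21 and Eda2r passed the minimum through the tumors with virus, which largely fixes their calls. The 3 highest by the TRP-1MV ratio were Tnfrsf11a, the receptor RANK, at 5.54 in the TRP-1MV tumor, Cd27 at 4.33 and Tnfrsf21 at 4.17. The 3 lowest were Tnfrsf19 at -1.20, Ngfr at -1.07 and Tnfrsf25, a receptor of TL1A, at -0.02. Tnfrsf19 was the one called lower, and that call was lost when total counts or housekeeping genes set the scale or the call rule was stricter.

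Fewer of the adaptors and death signalling genes were called. Of 17, 6 were called higher and 1 lower than CTX in the TRP-1MV tumor and the same numbers in the MV (L.i.t.) tumor, with medians of 0.32 and 0.29, beside the 18.5% and 18.1% of all genes called higher and 11.7% and 11.1% lower. The highest were Traf1, an NF-kB-induced adaptor, at 6.40 in the TRP-1MV tumor, Ripk3, a kinase of necroptosis, at 3.83, and Birc3, which encodes the ubiquitin ligase cIAP2, at 3.80. The lowest were Fadd, the death domain adaptor, at -1.12, Casp8, its caspase, at -0.52 and Tradd at -0.45. Fadd was the one called lower, a call lost under the same alternatives. In the remote tumor Traf1 was the one gene of this list called, with 31 reads against 11 in the CTX tumor (log2 ratio 1.44).

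Of 18 NF-kB factors and targets past the minimum, 12 were called higher than CTX in the TRP-1MV tumor and 11 in the MV (L.i.t.) tumor. None was called lower, and the medians were 1.90 and 1.88. Over all genes, 18.5% and 18.1% were called higher and 11.7% and 11.1% lower, with medians of -0.07 and -0.05. Il6 had 218 and 115 reads in the TRP-1MV and MV (L.i.t.) tumors, against 1 in the remote tumor and 2 in the CTX tumor. It passed the minimum through the tumors with virus, which largely fixes its call. Icam1, a leukocyte adhesion molecule, was at 5.30 in the TRP-1MV tumor, and Bcl2a1b, a survival factor of the BCL2 family, was at 5.19. The lowest were Tnfaip2 at -0.14, Sod2 at 0.26 and Nfkbib at 0.26. Icam1 was the one gene of the list called in the remote tumor, with 99 reads against 39 in the CTX tumor (log2 ratio 1.29). The Icam1 call, like those of Tnfrsf1b and Traf1 in the remote tumor, was lost when the ratio had to reach 4 or the interval to exclude 2, and that of Icam1 also after thinning to equal totals.

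Among genes that process the ligands, the sheddase genes themselves were level. Of 9, 3 were called higher and 1 lower than CTX in both tumors with virus. Beside these, 18.5% and 18.1% of all genes were called higher and 11.7% and 11.1% lower in the TRP-1MV and MV (L.i.t.) tumors. The medians of the list were 0.13 and 0.31 in the same tumors. Rhbdf2, a rhomboid pseudoprotease that carries the TNF sheddase ADAM17 to the surface, was at 2.66 in the TRP-1MV tumor, Zfp36, which encodes tristetraprolin, a protein that destabilises Tnf messenger RNA, at 2.22, and the protease Furin at 1.49. Sppl2b, an intramembrane protease, was at -2.23, and Adam17 and Adam10 were both at -0.07. Sppl2b stayed called lower when total counts or housekeeping genes set the scale.

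Few genes of the lymphotoxin response could be measured. Of 8 listed, Fdcsp was not analysed here, and Madcam1, an adhesion molecule of mucosal vessels and lymphoid stroma, was the one gene past the minimum, with 29 and 31 reads in the TRP-1MV and MV (L.i.t.) tumors against 2 in the remote tumor and 6 in the CTX tumor. It was called higher than CTX in both tumors with virus, through which it passed the minimum. The lymphoid chemokine genes Ccl19, Ccl21a and Cxcl13 were at 0 reads in all 4 libraries, as was Chst4, and Glycam1 had 1 read in the MV (L.i.t.) tumor. Cr2, a complement receptor of B cells and follicular dendritic cells, had 17, 12, 2 and 2 reads in the TRP-1MV, MV (L.i.t.), remote and CTX tumors. Reads at 0 allow up to 0.222 CPM in the least deep library.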

How the data were processed

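Total RNA from B16 tumor tissue was sequenced, with 1 library for each of 4 groups taken from the sample titles. The authors deposited 1 table of raw counts per library, whole numbers for 25239 gene symbols with no normalization. HISAT2, featureCounts and the build mm10 are named without versions, per the submitters' processing notes. The annotation, the strand setting and the multi-mapping rule were not given in the sources used here, so reads shared between genes can be lost or assigned to either.

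TMM factors over all 4 libraries (edgeR 4.0.16 under R 4.3.3) scaled the counts to CPM. A mean count of 10 or more was required for a gene to be compared. Ratios carry 95% Clopper-Pearson intervals from the exact conditional binomial (scipy 1.17.1, numpy 2.4.6, pandas 2.3.3, Python 3.11.15). A ratio of at least 2 whose interval excludes 1 was called. A library with 0 reads was set to 3 counts, per library. The ratio is then a bound at that floor, before counting error in the other library. No ratio was given where both had 3 reads or fewer. Intervals and floors cover counting error only, and reads without molecular identifiers are not independent molecules. The calling rule was checked first on simulated counts that held counting error only, so that check could not cover differences between mice. With 1 library a group, no p-value could be computed. Ratios per read of a marker list, with or without its dominant genes (Cd68 and C1qa, Mmp8 or Lck), or of another gene were chosen after seeing the data, and their intervals are those of a conditional odds ratio.

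Exon lengths and positions came from GENCODE M21 (24366 of 25239 symbols matched) and promoters from RefSeq on GRCm38.p6. Figures were drawn with matplotlib 3.10.9. The members and lists were chosen with earlier results of these data known. The genes named were all 10 ligands, all receptors of the ligands and all other ligands, the 3 highest and 3 lowest of each other list by the TRP-1MV ratio to CTX, the 5 most like profiles for Tnf and Tnfsf13b with a mean count of at least 50, and genes that a count singles out. Alternatives for the scale were upper-quartile factors, size factors from DESeq2 1.42.0, library totals, housekeeping genes, and TMM without ribosomal protein genes and 4 noncoding genes. The others were no minimum count, a minimum of 50, a required ratio of 4, an interval that must exclude 2, libraries thinned to equal totals and a floor of 1 count.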

Additional observations from a re-analysis of the deposited data

How the results depend on the processing

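Over 11 alternative settings of the scale, minimum, calling rule, depth and floor, 432 of 435 recomputed member ratios kept their direction where called and their side of the calling rule, 3 fell short of it and 0 reversed. Changing the minimum, the required ratio or the interval rule leaves the ratio itself as it was, so those settings could not reverse one. Ligands that a setting put under the minimum count were left out of this tally. Tnf, at 1.45 in the MV (L.i.t.) tumor against the remote tumor, was not called when the ratio had to reach 4. Tnfsf13b, at 1.58 in the TRP-1MV tumor against the MV (L.i.t.) tumor, was not called when the ratio had to reach 4 or the interval to exclude 2, which left 0 ligands called there, nor, in alternatives chosen after seeing the data, per neutrophil marker read, at 0.91, or per macrophage and monocyte marker read without Cd68 and C1qa, at 0.99. Its other marker-read ratios, and all of those of Tnf in the remote tumor against CTX, stayed called. With a mean of at least 50, fewer ligands remained to be counted, and 5 were called higher in the TRP-1MV tumor against CTX, 5 in the MV (L.i.t.) tumor against CTX, 5 in the MV (L.i.t.) tumor against the remote tumor and 0 in the TRP-1MV tumor against the MV (L.i.t.) tumor. Of 330 recomputed list counts, 301 stayed within 1.5 times the main count.

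Scaling on housekeeping genes moved the median log2 ratio of all genes by 0.41 in the TRP-1MV tumor against CTX, 0.42 in the MV (L.i.t.) tumor against CTX and 0.46 against the remote tumor, and scaling on total counts moved it by 0.24, 0.24 and 0.26. In the TRP-1MV tumor against CTX, 2476 genes were called higher and 1559 lower, and these became 2973 and 931 with total counts, 3446 and 679 with housekeeping scaling, and 1497 and 240 at a ratio of at least 4. The causes of these differences between scales were not tested.

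No paired analysis was possible because no group has a second library, and leaving out replicates could not be run for the same reason. Every ratio compares 2 libraries, and differences between mice of a group cannot be told apart from differences between treatments. Ligands with few reads, above all Fasl and Tnfsf14, are limited by depth.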

Other observations

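Of the other superfamily ligands, 5 were under the minimum count and enter no comparison. Tnfsf11, which encodes RANKL, had 21 reads in the TRP-1MV tumor and 6 in the MV (L.i.t.) tumor, with 1 in the remote tumor and 0 in the CTX tumor. The ligand Cd70, whose receptor is CD27, had 6 and 7 reads in the TRP-1MV and MV (L.i.t.) tumors and 0 in the remote and CTX tumors. Tnfsf18, the ligand of GITR, had 5 and 1 reads in the TRP-1MV and MV (L.i.t.) tumors and 0 in the remote and CTX tumors. Tnfsf13, which encodes APRIL, had 3, 1, 6 and 1 reads in the TRP-1MV, MV (L.i.t.), remote and CTX tumors. Eda had 0 reads in all 4 libraries.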
